A study of Mus musculus with 3 samples.

Results

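Chst3 and Chst15 encode Golgi sulfotransferases that decorate chondroitin, and 8 of the 2121 loci occupied in an EBF1 ChIP-seq experiment had one of them as the closest protein-coding gene, with the gene body at most 100 kb from the centre of the locus. Each gene had 4 loci. A locus is a set of overlapping deposited regions of 300 bp, and its value is that of the region with the higher mean. The 8 loci came from 15 of the 4116 regions. The genes were chosen with the values of both libraries in view, so their values and ratios are given as a description, with no test.

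The cells were pro-B cells grown from c-kit-positive progenitors of C57BL/6 Ebf1-/- fetal liver at E16.5. All carried retroviral rtTA-Advanced with tdTomato and a doxycycline-controlled FLAG-tagged NICD1, the part of the receptor Notch1 that acts in the nucleus. One culture received StrepFLAG-tagged wild-type EBF1 from a retrovirus with GFP (EBF1wt) and the other the same vector with the E271A substitution (EBF1E271A). Both were differentiated with OP9 feeder cells and then kept for 6 hours in 1 µg/ml doxycycline without feeders. Human BJAB lymphoma cells, which express their own EBF1, were added at 1 for every 10 mouse cells to set the scale. There was 1 ChIP library per protein, and an input whose label names the EBF1wt vector was not analysed per region here. No library without doxycycline was analysed here, so all values are with NICD1 induced. EBF1 came from a retroviral vector in cells lacking their own, and the labelled pro-B identity was not measured by these data.

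Chondroitin sulfate is a sugar chain of alternating glucuronic acid and N-acetylgalactosamine that is attached to proteoglycan core proteins in the Golgi and then sulfated. CHST3 adds sulfate to N-acetylgalactosamine of chondroitin, and CHST15 adds a further sulfate to units that already carry one, which gives the disulfated E type of chondroitin sulfate. CHST15 is also known by the older name BRAG, for B cell RAG associated gene. EBF1 is a transcription factor needed to specify B cells, and it binds as a dimer to a palindromic DNA element.

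The start of Chst3 carried both a deposited region and the letters of the EBF1 palindrome. The Chst3 region spanned chr10:60219290-60219589, with its centre 180 bp upstream of the RefSeq start site on the minus strand. The gene body in RefSeq's gene table reaches 2.85 kb further upstream than this start site, so the region is at a start site but not at the outermost 5' end. RefSeq's window from 250 bases before to 50 bases after that start (GRCm38.p6, chr10:60219211-60219510, minus strand) shares 221 bases with the region, and these are the first 221 bases printed. It is shown because it is the only sequence under a Chst3 or Chst15 locus that could be read here, and the capitals mark the match to the EBF1 palindrome, TCCC and GGGA with any 2 bases between them.

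Chst3 start: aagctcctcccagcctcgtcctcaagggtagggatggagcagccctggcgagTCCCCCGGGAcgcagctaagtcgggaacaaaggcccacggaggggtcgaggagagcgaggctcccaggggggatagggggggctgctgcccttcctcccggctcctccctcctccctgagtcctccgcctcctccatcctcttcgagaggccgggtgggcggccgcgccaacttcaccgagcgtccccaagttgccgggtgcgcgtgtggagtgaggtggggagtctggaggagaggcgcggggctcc

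The match TCCCCCGGGA occupied bases 53 to 62 of the window. Its middle lay 194 bases before the start site and 14 bases from the centre of the region. A second, one-sided match to TCCCNNGGG, which shares no base with the palindrome, began at base 114 and lay 46.5 bases from the centre. The one-sided form is contained in the palindrome, so the palindrome itself counts as a further pair of one-sided matches, 1 on each strand. The RBPJ core TGGGAA, the element of the DNA-binding partner of NICD1, had no match on either strand of these 300 bases. Of 32817 RefSeq start windows of the same length, 0.905% held the palindrome, 6.56% the one-sided form and 25.6% the RBPJ core.

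Windows at deposited regions held the palindrome more often than other windows. Among 145 windows that shared at least 150 bases with a region, 31.7% held it, against 0.768% of the 32672 others. For the one-sided form the shares were 62.1% and 6.31%, and for the RBPJ core 31.0% and 25.5%. The windows of 1 gene can overlap, so these shares are a description. The distance of 14 bases at Chst3 was also typical: over 39 palindromes in windows that touched a region, the median distance to the region centre was 11 bases, with quartiles of 5 and 22.5. The form at Chst3, counted together with its reverse complement, made up 7 of these 39 palindromes. Sdc4, singled out after its values were seen, held another of the 7. It encodes the core protein syndecan-4 and had the reverse complement of the Chst3 element 23 bases from the centre of its region. The stretches of both genes are printed on the strand of each gene, with 15 bases on either side and the palindrome in capitals (GRCm38.p6, chr10:60219434-60219473 and chr2:164443251-164443290, both minus strand).

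Chst3: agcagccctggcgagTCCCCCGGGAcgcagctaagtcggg
Sdc4: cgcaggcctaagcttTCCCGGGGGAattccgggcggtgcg

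The start of Chst15 differed from that of Chst3 in both respects. RefSeq gives 2 start windows for Chst15, and no deposited region touched either of them. The more upstream window (chr7:132317179-132317478, minus strand) is shown for contrast. Neither window matched the palindrome, the one-sided form or the RBPJ core, which says only that these letters are not in the windows.

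Chst15 start: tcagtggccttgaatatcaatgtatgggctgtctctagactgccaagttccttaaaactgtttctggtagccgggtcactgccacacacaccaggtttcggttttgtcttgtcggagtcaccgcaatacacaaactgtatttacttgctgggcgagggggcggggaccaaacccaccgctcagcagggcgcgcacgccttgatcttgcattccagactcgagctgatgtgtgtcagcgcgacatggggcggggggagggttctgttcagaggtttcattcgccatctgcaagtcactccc

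The locus at the Chst3 start had nearly equal values in both libraries. EBF1wt had a scaled count of 123 there and EBF1E271A one of 135. The value was slightly higher for EBF1E271A, and the exact Poisson 95% intervals of both counts, 97.5 to 154 and 117 to 154, overlapped. The ratio of EBF1E271A over EBF1wt was 1.09, with an exact binomial (Clopper-Pearson) 95% interval of 0.839 to 1.43. Intervals throughout cover counting error only, treat reads as separate molecules and assume that the spike-in scale has no error. With 1 library per protein, no difference has a replicate check and none could be tested. This was the highest ratio of the 8 loci. Of the 127 loci that shared at least 150 bases with a start window, 108 had a lower ratio, and their median was 0.886. Of the 38 among them whose window held the palindrome, 34 had a lower ratio, and their median was 0.912. Over all 2121 loci, 1674 had a lower ratio, and the median was 0.896. Each of these medians lay inside the counting interval of the locus at the Chst3 start.

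The other 3 Chst3 loci lay side by side past the 3' end of the gene. The gene body spans chr10:60181527-60222114, and the loci were 11.1, 12.3 and 13.1 kb beyond it. Their centres lay 48.8, 50.0 and 50.8 kb downstream of the start site. The gaps between neighbouring centres were 1.19 and 0.794 kb, so the outer centres were 1.98 kb apart, and the 3 loci covered 2.28 kb from first to last base without sharing one. This was the only group of 3 loci with centres within 2.5 kb in the whole list, which held 44 neighbouring pairs within 2 kb. Within 5 kb there were 2 such groups, and within 10 kb 7 groups with 21 loci. These limits were set after the spacing had been seen.

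The values of the 3 loci differed. At chr10:60170280-60170579, nearest to the gene, EBF1wt had a scaled count of 126 and EBF1E271A one of 82.9. This locus was lower for EBF1E271A, with a ratio of 0.655 (0.492 to 0.876), the lowest of the 8 loci. At chr10:60169094-60169393, in the middle, the values were 168 and 155. They were nearly equal, with a ratio of 0.925 (0.733 to 1.17). At chr10:60168300-60168599, farthest from the gene, they were 122 and 85.4. This locus was again lower for EBF1E271A, with a ratio of 0.701 (0.526 to 0.9404). The middle locus was thus the strongest of the 3 in both libraries. The intervals of the 3 ratios overlapped one another. Summed over the 3 loci, the values were 416 and 323, a ratio of 0.777 (0.669 to 0.905). The ratio at the start of the gene was 1.41 times that of these loci, with an exact conditional 95% interval for counting error of 1.03 to 1.92, in which the spike-in scale cancels. This split was chosen after the values were seen, on the contrast that chose the genes, and is a description of these 2 libraries. Every deposited region exceeded a scaled count of 100 in EBF1wt, EBF1E271A or both. The loci nearest to and farthest from the gene did so in EBF1wt alone, so EBF1E271A was lower there by construction. This bears on the summed ratio and on the 1.41, so the interval is not a test.

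**Figure D1:**
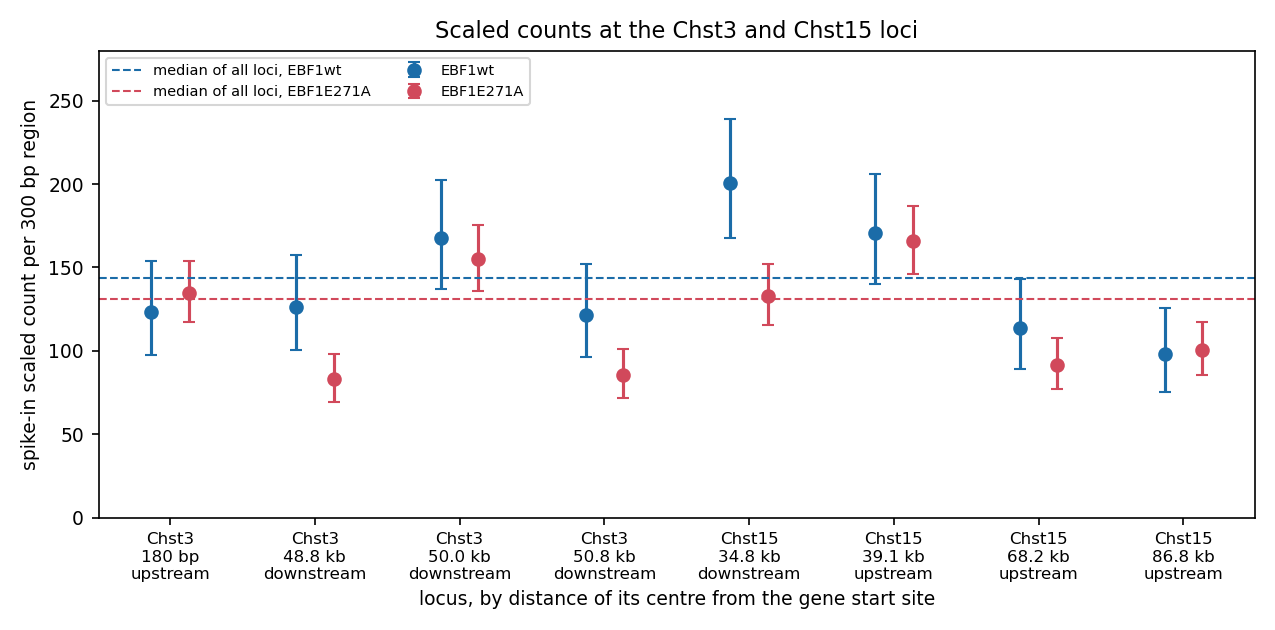
Spike-in scaled counts (y axis, per region of 300 bp) at the 8 loci of Chst3 and Chst15 (x axis, named by distance from the start site) in the EBF1wt (blue) and EBF1E271A (red) libraries, with exact Poisson 95% intervals as bars and the medians of all 2121 loci as dashed lines. The largest gap between the libraries is at the locus inside Chst15, with 200.8 against 133.

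Chst15 had 1 locus inside the gene and 3 upstream of it. The gene body spans chr7:132235779-132323534, and the inner locus (chr7:132282233-132282532) lay 34.8 kb downstream of the more upstream start site in the window table. The gene body reaches 6.31 kb further upstream than that start site. Exons and introns were not analysed here. EBF1wt had a scaled count of 200.8 at this locus and EBF1E271A one of 133. It held the highest EBF1wt value of the 8 loci, and its Poisson intervals, 167 to 239 and 115 to 152, did not overlap. The ratio was 0.661 (0.528 to 0.831).

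The 3 upstream Chst15 loci were closer to equal. At chr7:132356225-132356524, 39.1 kb upstream of the start site, the values were 171 and 166, a ratio of 0.970 (0.773 to 1.23). This locus held the highest EBF1E271A value of the 8. At chr7:132385293-132385592, 68.2 kb upstream, they were 114 and 91.7, a ratio of 0.806 (0.603 to 1.08). At chr7:132403840-132404139, 86.8 kb upstream, they were 98.0 and 101, a ratio of 1.03 (0.760 to 1.40). The last of these was the weakest in mean value of the 8 loci and the only one formed by a single region. EBF1wt values were lower at each step away from the gene over these 3 loci, with Poisson intervals that overlapped between neighbouring loci. The EBF1E271A value of the farthest was above that of the one before it, also with overlapping intervals. Summed over the upstream loci, the values were 383 and 358, a ratio of 0.936 (0.803 to 1.09). Relative to the inner locus, the upstream ratio was 1.41 times as high, with an exact conditional 95% interval for counting error of 1.07 to 1.86. This split, too, was chosen after the values were seen, and whether the difference exceeds the spread between replicates was not tested. The locus at 68.2 kb was above 100 in EBF1wt alone and the locus at 86.8 kb in EBF1E271A alone. At both, the library with the lower value was thus fixed by construction, and the interval is not a test.

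**Figure D2:**
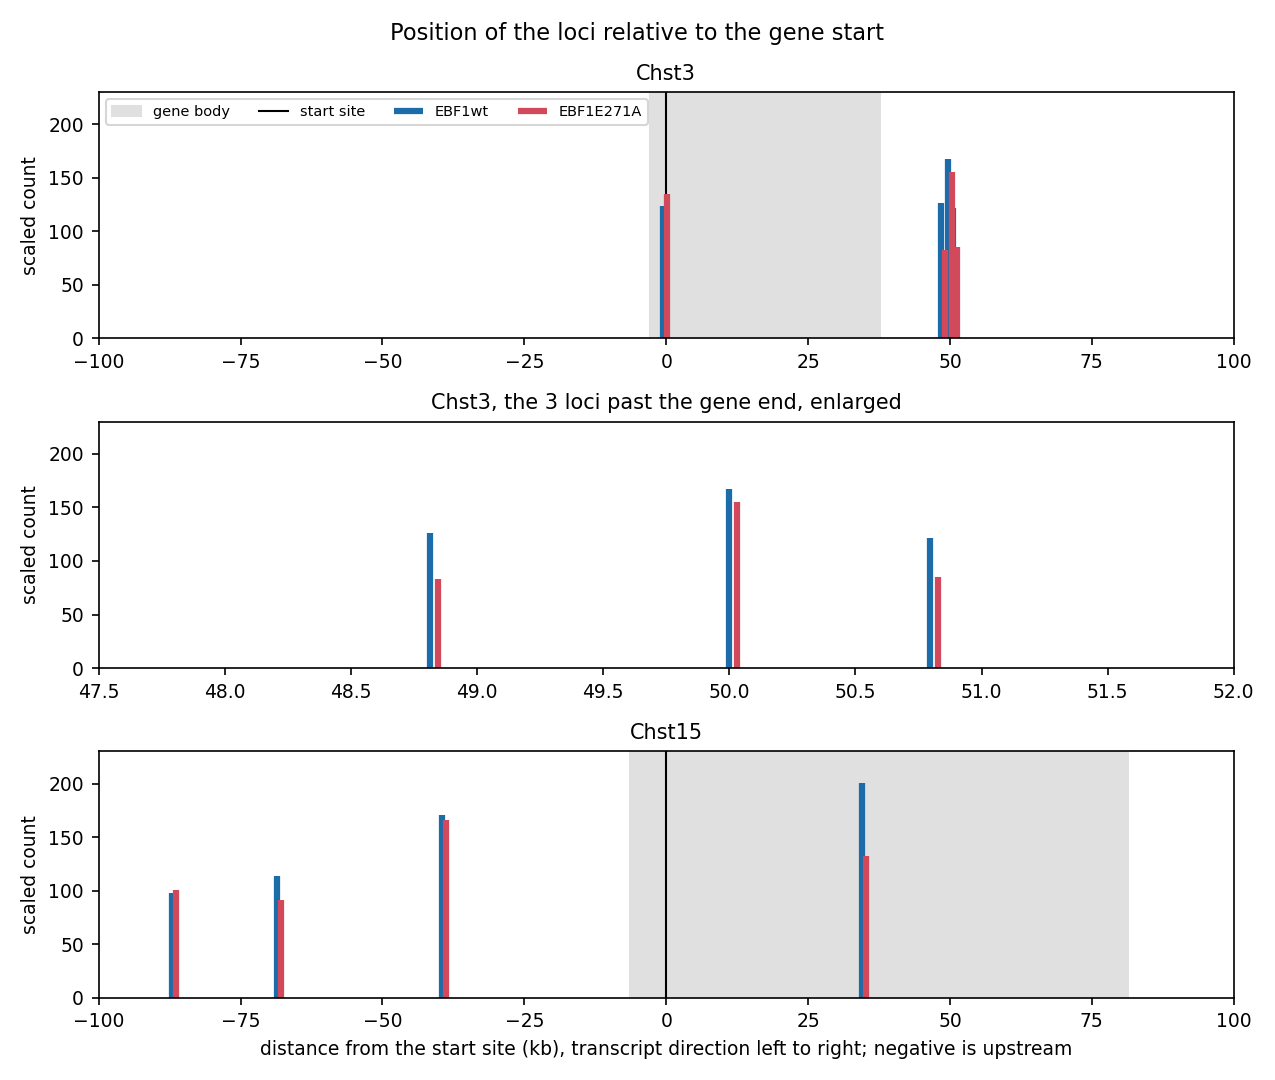
Scaled counts (y axis) of EBF1wt (blue) and EBF1E271A (red) against distance from the start site in kb (x axis, in the direction of transcription), with gene bodies shaded. The loci of Chst3 sit at the start and in a group of 3 past the gene end, which is enlarged in the middle panel, whereas 3 of the 4 loci of Chst15 lie upstream of the gene.

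The assignment to these genes rests on counting protein-coding genes only. Inside the gene bodies lay 1 locus of each gene, at the start of Chst3 and inside Chst15. All of the other 6 loci were nearer to a long noncoding RNA gene. The 3 loci past the end of Chst3 lay 6.06 to 8.04 kb upstream of the start of Gm51802. The Chst15 locus at 68.2 kb lay inside Gm34908, 1.14 kb from its start, and the locus at 39.1 kb lay 3.99 kb past its end. The farthest lay 2.00 kb upstream of the start of Gm39101. RNA was not measured in this series, so which gene a locus acts on, if any, was not tested.

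Summed over their loci, the genes differed in ratio by less than counting error. For Chst3 the EBF1wt values summed to 539 and the EBF1E271A values to 458, which gives a ratio of 0.849 (0.746 to 0.969). For Chst15 they were 583 and 491, a ratio of 0.841 (0.742 to 0.955). At each gene 3 of the 4 loci had a ratio below 1 and 1 a ratio above it. In all, the 8 loci rested on 710 unscaled EBF1wt counts and 1500 unscaled EBF1E271A counts. How many ratios fall below 1 depends on the spike-in scale. When the sums of the libraries over all regions were set equal instead, the ratios of the sums were 0.991 and 0.981, and 4 of the 8 loci had a ratio below 1. This change multiplies the ratio of every locus by 1.17. The share of all loci below 1 on that scale is not given here, so the 4 of 8 is no result about these genes.

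Set beside all loci, the 8 were unremarkable in direction and size. A ratio below 1 was found at 6 of 8 loci, against 67.2% of all 2121 loci. At least 1.5-fold lower (log2 after a pseudocount of 1) were 2 of the 8, the locus nearest to the 3' end of Chst3 and the locus inside Chst15, against 14.1% of all loci. None of the 8 was at least 1.5-fold higher, against 3.11% of all loci. None was at least 2-fold lower, against 4.48%, or 2-fold higher, against 0.849%. The counting interval lay below 1 at 3 of the 8, against 29.8%, and above 1 at 0, against 8.11%. It lay below the median ratio of all loci, 0.896, at 2 of the 8, against 16.7%, and above it at 0, against 17.3%. The median log2 ratio of the 8 was -0.21, with a range of -0.60 to 0.13, and that of all loci was -0.16, with quartiles of -0.39 and 0.08. These shares are too close to those of all loci to be a result about the genes, and the genes were chosen on this contrast.

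The 8 loci were of moderate strength. EBF1wt values ran from 98.0 to 200.8, against a median of 144 over all loci, and reached from the 7.99th to the 73.5th percentile. EBF1E271A values ran from 82.9 to 166, against a median of 131, from the 11.3rd to the 66.6th percentile. The mean of both libraries was below the median of all loci at 5 of the 8. Each deposited region exceeded a scaled count of 100 in at least 1 library, and this floor bears on weak loci. Above 100 in both libraries were 4 of the 8 loci, against 68.4% of all loci. Above it in EBF1wt alone were 3, against 23.1%, namely 2 of the loci past the end of Chst3 and the Chst15 locus at 68.2 kb. Above it in EBF1E271A alone was 1, the farthest Chst15 locus, against 8.49%. A locus above 100 in 1 library alone has a ratio on that side of 1 by construction. The inner Chst15 locus, at 200.8 and 133, was above 100 in both.

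**Figure D3:**
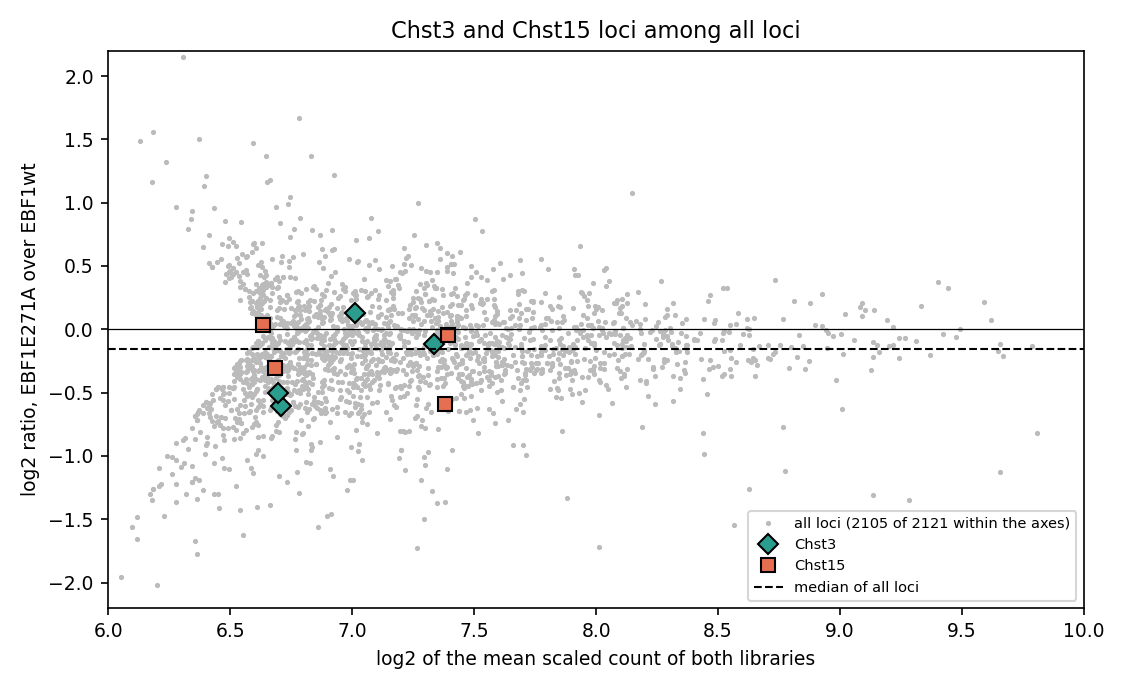
Log2 ratio of EBF1E271A over EBF1wt (y axis) against the log2 mean scaled count (x axis) for all loci (grey, 2105 of 2121 within the axes), Chst3 (diamonds) and Chst15 (squares), with the median of all loci dashed. The 8 loci lie between -0.60 and 0.13, inside the cloud, and 5 of them are left of its median strength.

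The number of loci was less common than their ratios. Of 1634 genes with a locus, 17 (1.04%) had at least 4, and the most, 6, lay at Zmiz1. Having several loci is part of why these genes were chosen. Among the 17 genes, the ratios of the sums ran from 0.482 to 1.37 with a median of 0.849, and 11 were below 1. Chst15 ranked 8th and Chst3 9th from the lowest. Among the 270 other genes with at least 2 loci, those nearest to Chst3 in mean log2 value and log2 ratio of sums were Lhpp (ratio 0.828, 2 loci), the phosphoinositide kinase gene Pik3cd (0.854, 2 loci) and the growth factor gene Vegfa (0.875, 2 loci). Those nearest to Chst15 were Trappc9 (0.831, 3 loci), Cpne5 (0.823, 3 loci) and again Pik3cd. This likeness rests on 2 libraries.

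Other loci within 500 kb of the genes are given as local context. Around Chst3 lay 5, with ratios of 0.735 to 1.38 and a median of 1.01, and 2 of them were below 1, beside 67.2% of all loci. The median of the 4 Chst3 loci was 0.813. The loci just outside the choice were 125 and 149 kb from Chst3, inside Vsir, which encodes the checkpoint receptor VISTA. Their values were 155 and 114, a ratio of 0.735 (0.571 to 0.9496), and 207 and 220.1, a ratio of 1.06 (0.867 to 1.31). A locus 12.97 kb from Anapc16 had the highest ratio of the surroundings, 1.38 (0.998 to 1.95), from values of 75.9 and 105. Loci beside the stress response gene Ddit4 and beside the cadherin gene Cdh23 had ratios of 1.01 and 0.961.

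Within 500 kb of Chst15 lay 5 other loci, all on its upstream side and all with ratios below 1, from 0.750 to 0.979, beside 67.2% of all loci. Only the locus with the ratio of 0.750 had a counting interval wholly below 1 (0.582 to 0.971). The farthest Chst15 locus, 80.5 kb from the gene body, was the last inside the 100 kb limit. The next locus, 157 kb from Chst15, was nearest to Oat, which encodes ornithine aminotransferase, and had values of 253 and 245, a ratio of 0.970 (0.805 to 1.17). The strongest locus of the surroundings lay inside Fam53b, with 376 and 355 and a ratio of 0.945 (0.810 to 1.104). A pair of loci inside the phosphatase gene Lhpp had ratios of 0.932 and 0.750.

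Other genes of glycosaminoglycan metabolism also had loci. Of 106 listed gene symbols 105, all but Impad1, were found in the gene table, and 13 had a locus, Chst3 and Chst15 included. Without these genes the share was 11 of 103 (10.7%), against 1634 of 21900 protein-coding genes (7.46%). Among the 14 loci of the 11 others, the ratio was below 1 at 9, beside 67.2% of all loci. The 1.5-fold rule was passed downwards by 3 of the 14, against 14.1%, and upwards by 3, against 3.11%. The 3 upward loci were all above 100 in EBF1E271A alone. The median log2 ratio of the 14 was -0.12, against -0.16 for all loci. In the chondroitin and dermatan sulfate list of 16 genes, 4 besides Chst3 and Chst15 had a locus, against 7.46% of all protein-coding genes. Chst3 and Chst15 have loci by choice and are left out of this count. This list was chosen with earlier results of these data known. No locus was found near the 9 genes listed for synthesis of the linker to the core protein. The same held for the 11 other carbohydrate sulfotransferases and the 6 genes of sulfate donor supply found in the table. These lists are too short for a count of 0 to set them apart from other genes.

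The other chondroitin sulfotransferase genes with a locus, Chst11 and Chst12, had ratios from 0.394 to 1.85. Inside Chst12, which encodes a sulfotransferase of another position of N-acetylgalactosamine, the values were 338 and 133, a ratio of 0.394 (0.325 to 0.479). This locus lies at chr5:140515394-140515693. Many loci before it along chromosome 5 also had low ratios, though some did not, so a low ratio is not particular to Chst12. Chst11, which encodes an enzyme of the same activity as that of Chst12, had 3 loci. Outside the gene the values were 185 and 122, a ratio of 0.660 (0.522 to 0.838), and inside it they were 90.1 and 118, a ratio of 1.31 (0.965 to 1.79), and 94.9 and 175, a ratio of 1.85 (1.39 to 2.48). The loci of Chst11 thus lay on both sides of 1, with intervals that did not all overlap, and both inner loci were above 100 in EBF1E271A alone. The chain polymerase gene Chsy1, 21.0 kb from its locus, and Dse, which encodes the epimerase that makes dermatan sulfate, both had a ratio of 0.916.

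Of 23 heparan sulfate genes 3 had a locus, against 7.46% of all protein-coding genes, and 2 of these loci held the highest ratios of the lists. Inside Hs3st1, a heparan sulfate sulfotransferase gene, the values were 52.2 and 168, a ratio of 3.21 (2.23 to 4.76). Inside Extl2, a glycosyltransferase gene of the exostosin family, they were 52.2 and 116, a ratio of 2.22 (1.52 to 3.32). Both loci were above 100 in EBF1E271A alone. Inside Ndst1, which encodes the enzyme that starts sulfation of heparan sulfate, the ratio was 0.853.

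Of 25 core protein genes 2 had a locus, with ratios close to the median of all loci. The ratio was 0.854 near Cd74, the invariant chain gene, and 0.924 and 0.945 at 2 loci of Sdc4. Of 15 genes of chain breakdown 2 had a locus. The locus near Hexa, which encodes a subunit of the lysosomal hexosaminidase, had 112 and 43.0, a ratio of 0.383 (0.271 to 0.542). It was above 100 in EBF1wt alone. The locus near Sumf1, which encodes the sulfatase-activating enzyme, had a ratio of 1.00.

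**Figure D4:**
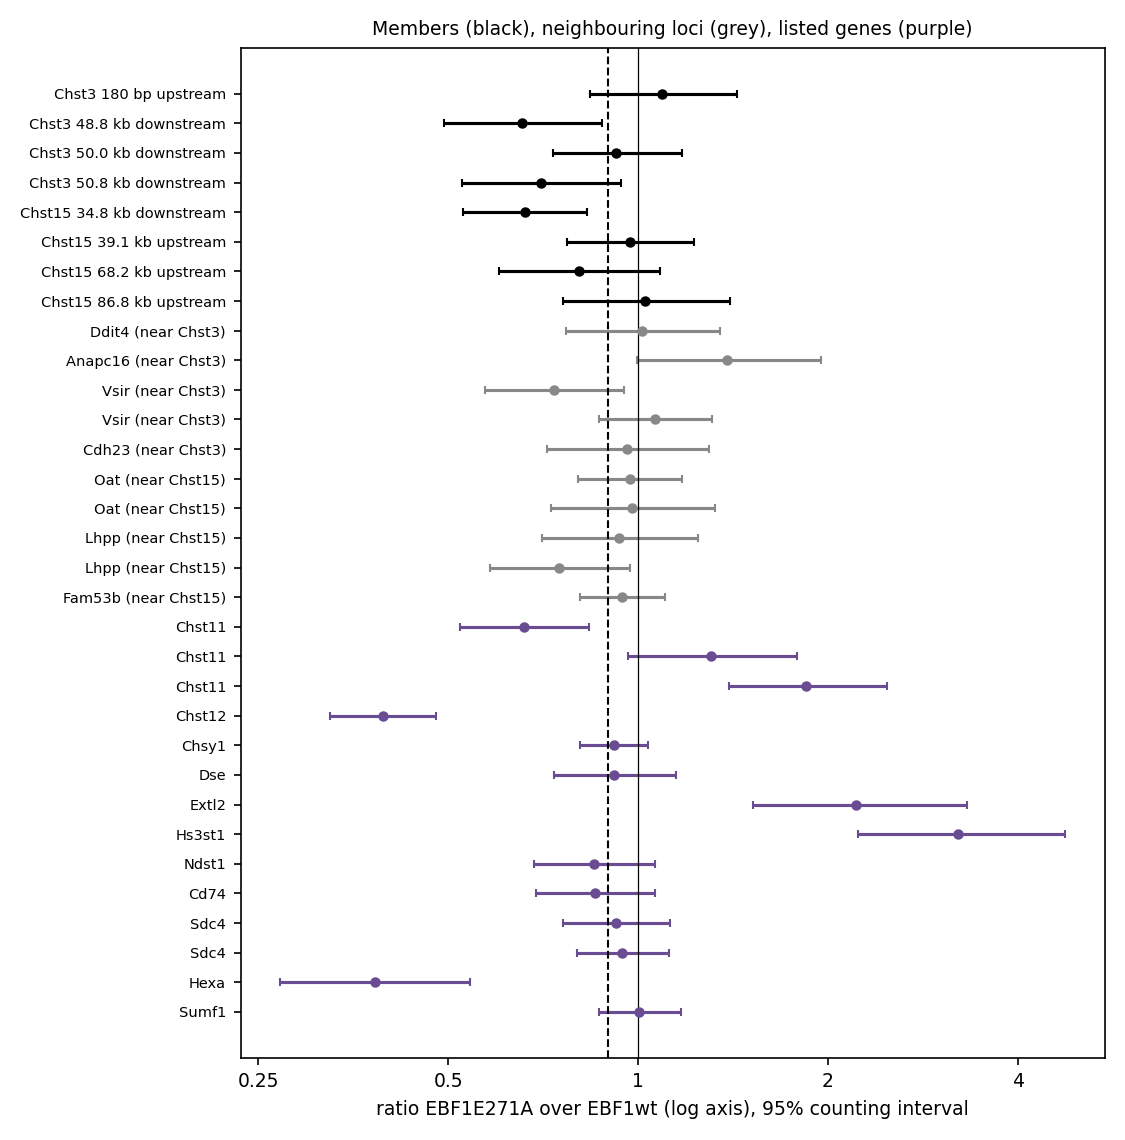
Ratio of EBF1E271A over EBF1wt (x axis, log scale) with 95% counting intervals for the 8 loci of Chst3 and Chst15 (black), the 10 other loci within 500 kb (grey) and the 14 loci of other listed genes (purple), with the median of all loci dashed. The black points run from 0.655 to 1.09, and the purple points from 0.383 to 3.21.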

How the data were processed

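EBF1 ChIP-seq was measured in 1 EBF1wt and 1 EBF1E271A library, each from 20 µg of chromatin and 4 µg of antibody per the labels' protocols. The deposited values are a signal: scaled counts per region, per the file headers, with human spike-in chromatin for normalization per the labels. Per the submitters' processing notes the tools were deepTools 3.5.0 and 3.3.2, bedtools 2.27.0, MACS2 2.2.7.1, SAMtools 1.10 and Bowtie2 2.3.5.1, with GRCm38. The making of regions and scale factors is not given in the sources. All EBF1wt values were whole multiples of 1.5811 and all EBF1E271A values of 0.6325 (tolerance 0.001 counts, 100% of values). Division by these steps gave the unscaled counts behind the intervals, 515897 and 1105818 in sum over the regions. The steps are read from the values, not from a stated factor.

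Starts were taken as counted from 0 and are printed from 1. Overlapping rows were merged into loci, and genes came from RefSeq (GRCm38.p6, 21900 protein-coding genes, nearest body to the centre; inside several, the shorter). Start sites, strands and sequences came from RefSeq's table of start windows, in which both genes were found. Motifs were searched on both strands. Python 3.11.15 and scipy 1.17.1 were used. The ratios and intervals were tested on simulated Poisson counts, which hold no duplicate reads, spike-in error or spread between replicates.

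The members, lists and settings were chosen with earlier results of these data known. Named were all loci of both genes, loci within 500 kb, listed genes with a locus and the 3 genes most alike; the start-window comparison, Sdc4 and the spacing of loci were singled out after their values were seen. Equal sums, a pseudocount of 10, means over overlapping regions, each region counted, other distance limits, loci at or above the median and a 2-fold rule were tried. The planned search for motifs under the other loci was not run, because it needs genome sequence that was not used here.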

Additional observations from a re-analysis of the deposited data

How the results depend on the processing

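Of the locus ratios, each of the 32 values under equal sums (with and without the region of highest value), a pseudocount of 10 or means over overlapping regions stayed within its main counting interval, which with about 62 to 127 counts per locus in the EBF1wt library is wide. Equal sums over all regions moved the ratio of the sums to 0.991 at Chst3 and 0.981 at Chst15. They left 0 loci at least 1.5-fold lower, and the 2-fold rule also left 0. Equal sums without the region of highest value gave ratios of 0.945 at Chst3 and 0.936 at Chst15. Genes within 10 kb, and the nearest gene of any type (added after seeing the data), each left 2 loci, with a ratio of 1.09 at Chst3, on the other side of 1, and 0.661 at Chst15, because only 1 locus per gene was left. As deposited, the 8 loci were 15 rows, and 3 loci had a mean value no lower than the median. All loci within 100 kb gave the same 8. The median log2 ratio was 0.0095 with equal sums, -0.06 with equal sums without the region of highest value, and between -0.31 and -0.20 under the 6 other settings. No paired analysis was possible because each group has 1 library, and no replicate could be left out.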

Other observations

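The EBF1 palindrome, TCCC and GGGA with any 2 bases between them, occurred in 10 forms at the 39 matches in start windows that touched a deposited region, when each form and its reverse complement were counted together. The commonest was TCCCCAGGGA, with 11 matches and a median ratio of EBF1E271A over EBF1wt of 0.921. The form at Chst3 and Sdc4, TCCCCCGGGA, had 7 matches and a median ratio of 0.979, and TCCCAAGGGA had 6 and 0.886. These counts are too few to compare the forms, and no test was made.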
